A study of Mus musculus with 47 samples.

Results

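The genes described here encode the nuclear subunits of the mitochondrial respiratory chain and of ATP synthase, followed in luminal and basal mammary epithelial cells of the mouse through pregnancy, lactation and involution. They were taken by symbol alone, without use of any expression value. A gene was included if its symbol began with Ndufa, Ndufb, Ndufc, Ndufs or Ndufv and a digit, with Uqcr, with Cox4 to Cox8 or with Atp5, or was Sdha, Sdhb, Sdhc or Sdhd, and predicted pseudogenes were dropped. This gave 82 of the 17078 genes measured, of which 36 belong to complex I, 4 to complex II, 8 to complex III, 17 to complex IV and 17 to complex V. Of the 82 genes, 75 had reads in every library and 73 had a mean of at least 5 CPM, the read count scaled by the effective library size, over all libraries.

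Complexes I to IV pass electrons from NADH and succinate to oxygen. Complexes I, III and IV pump protons across the inner mitochondrial membrane, and complex V, the ATP synthase, uses the returning protons to make ATP. Most subunits are encoded in the nucleus and imported, whereas a small core of complexes I, III, IV and V is encoded by mitochondrial DNA. Several complex IV subunits exist as alternative isoforms that replace each other in particular tissues or at low oxygen. In the mammary gland, luminal cells secrete milk and basal cells, which are myoepithelial, contract to eject it.

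The 46 libraries with values came from FVB/N mice and fell into 16 groups, 8 time points in each of 2 sorted cell types. Females that had never been pregnant were taken at 10 weeks (W10) and at 4 months (M4), pregnant females at days 3.5 (P3.5) and 14.5 (P14.5), and lactating females at days 3 (L3) and 10 (L10). Involuting glands were taken 2 days after forced weaning (Id2) and parous glands 4 weeks after it (Iw4). Lineage-negative CD24+ CD29lo cells made the luminal libraries and CD24+ CD29hi cells the basal ones, both sorted from the same pool of 4 mice after negative selection against CD11b, CD31, CD45 and CD140a among others, and no transgene or treatment was involved. Every group held 3 libraries except P14.5 basal and L10 basal, which held 2 each. Recovered read totals ran from 4398806 to 20023054 per library with a median of 8518616, and 3 reads, the limit that a count of 0 allows, corresponded to between 0.17 and 1.052 CPM.

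Amplification batch followed the time points. W10 and Id2 shared a batch, as did P3.5 with P14.5 and L3 with L10, and M4 and Iw4 were spread over the same 3 batches. The luminal and basal libraries of a sort shared lane and batch, so a difference between the cell types lies within batches. A difference between time points of different batches cannot be told apart from a batch difference. The W10 libraries stood apart from the other non-pregnant ones for the subunit genes. The median deviation of the members from their means over all libraries was -0.62 in W10 luminal and -0.91 in W10 basal on the log2(CPM + 1) scale, against 0.31 and 0.15 in M4 and 0.44 and 0.10 in Iw4, and the counts of subunit genes that rest on W10 are given with and without it, while those of the other lists were counted with W10.

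The sort labels were checked against marker genes. The 10 luminal markers passed higher in luminal libraries in 9 cases, and all 10 basal markers were higher in basal libraries, by a median log2 difference of 5.55 (limma, averaged over the 8 time points). The basal markers summed to between 15221 and 66779 CPM in the basal groups other than Id2. At Id2 the 3 basal libraries gave 1369, 17966 and 1110 CPM, so replicates 2 and 6 had little basal signal. The same Id2 basal group averaged 28561 CPM over 8 fibroblast markers and 5955 CPM over 8 endothelial markers, against 323 and 145 CPM in W10 basal. In basal libraries at lactation, all 6 pericyte markers, all 8 endothelial markers, all 4 measured adipocyte markers and 4 of 5 skeletal muscle markers rose against the non-pregnant groups, while 1 of 8 fibroblast markers rose and 1 fell. In luminal libraries at lactation, 7 of 8 endothelial, 3 of 7 macrophage, 2 of 3 brown adipocyte, 2 of 4 adipocyte and 3 of 6 pericyte markers rose, as did the 1 lymphocyte marker measured. In sorted populations measured in bulk, fewer cells of a type and less RNA per cell cannot be told apart.

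Levels were compared between genes per kb of exon. The length was that of all annotated exons of a gene joined. It can exceed the length of any single transcript, which lowers the value per kb. The highest member of each complex by mean CPM per kb was Ndufb9 in complex I (76.5), Sdhd in complex II (53.7), Uqcr10 in complex III (88.7), Cox6a1 in complex IV (370.9) and Atp5b in complex V (419.5). Atp5b encodes the catalytic beta subunit of ATP synthase, and its partner in the F1 head, Atp5a1, stood at 154.9 CPM per kb. Cox6a1 was followed in complex IV by Cox8a at 356.1, Cox4i1 at 117.0 and Cox6b1 at 112.0 CPM per kb. Medians per complex were closer together, at 19.7 CPM per kb for complex I, 38.6 for II, 35.8 for III, 26.6 for IV and 26.6 for V. Ndufb4, Ndufs5, Ndufa11b and Atp5l lay between 0.5 and 1.7 CPM per kb, and since near-identical copies of such genes can take their reads, these levels are uncertain. That of Atp5l also rests on a joined exon length of 6.443 kb. Ndufa13 shared 30.0% of its exon bases with Tssk6 and Ndufb6 shared 39.0% with Smim27, so part of their reads cannot be assigned with certainty.

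**Figure D1:**
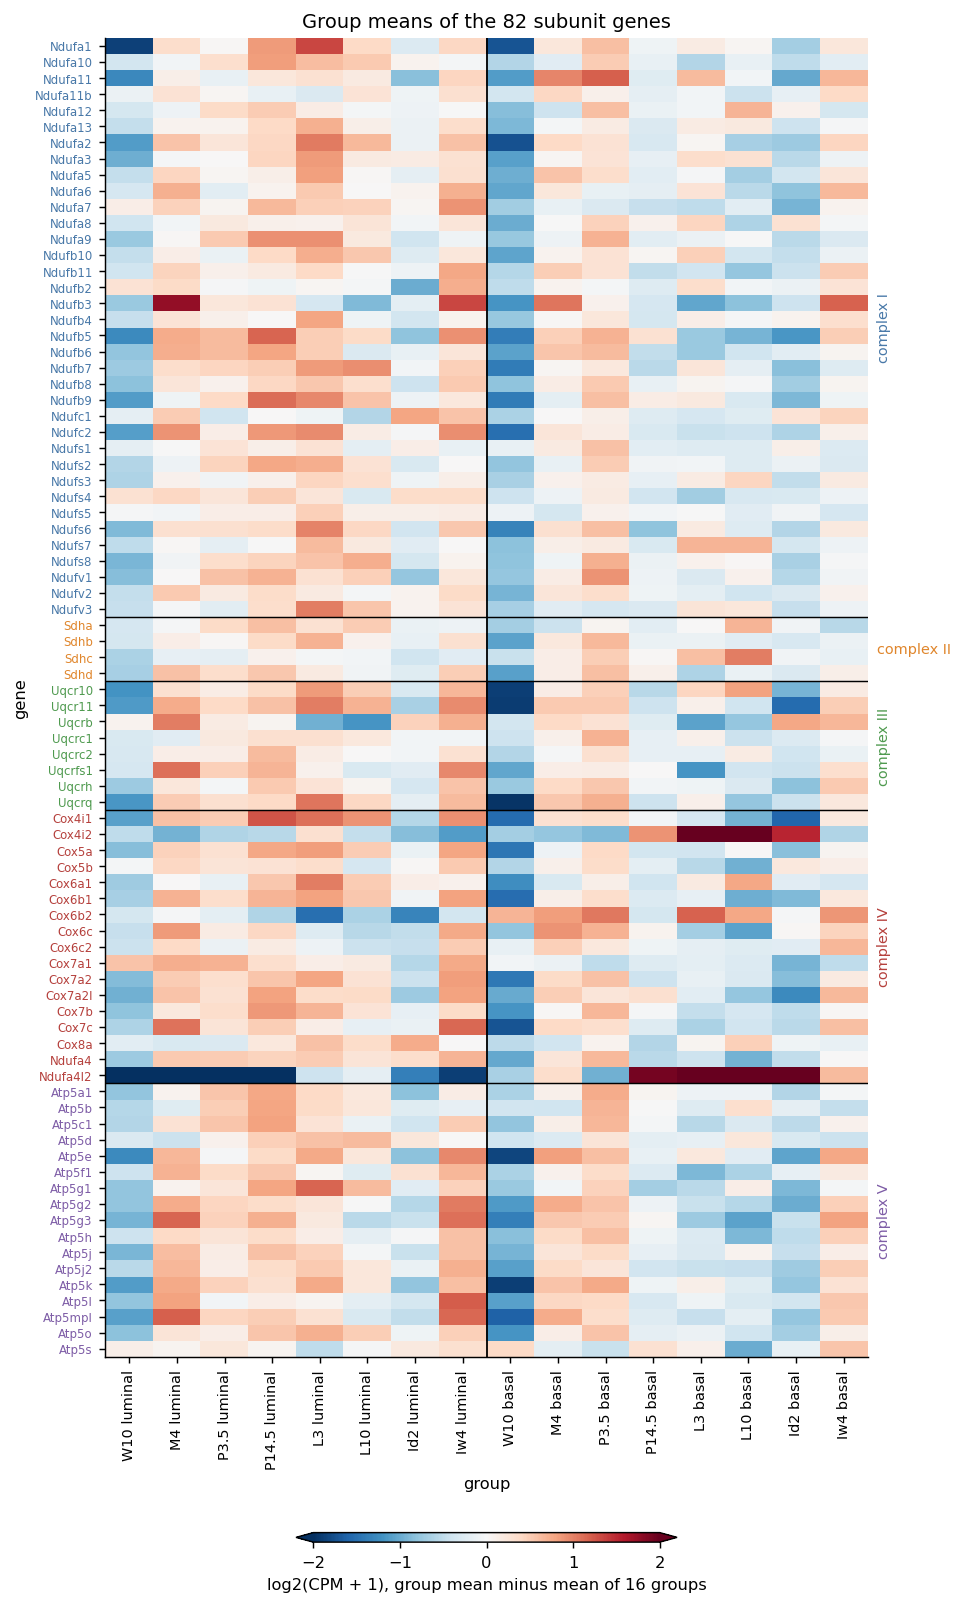
Group means of the 82 subunit genes, ordered by complex (rows, complex I at the top) over the 16 groups (columns, luminal left and basal right). Colour is the group mean of log2(CPM + 1) minus the gene's mean over the 16 groups, clipped at 2, and the W10 columns are low for most genes in both cell types while Ndufa4l2 and Cox4i2 are high in the basal L3, L10 and Id2 columns.

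Promoter windows from RefSeq, on assembly GRCm38.p6, were matched by symbol for 66 of the 82 genes and gave 71 windows of 300 bases, from 250 before to 50 after the annotated start. Each window was searched on both strands for 4 motifs of factors known to drive respiratory chain genes. GCGCATGCG, bound by NRF1, was in 8 windows (11.3%, exact 95% interval 4.99 to 21.0%) against 1.75% of all 32851 RefSeq windows. These were not limited to the genes measured here and were not matched for expression or base composition. CCGGAAG, bound by GABP, was in 22.5% against 8.86%, AAGATGGC, bound by YY1, in 14.1% against 2.75%, and AAGGTCA, bound by ESRRA, in 11.3% against 4.72%. At least 1 of the 4 was present in 33 windows (46.5%, against 16.9% of all windows). Within the last 150 bases the shares were 8.45, 19.7, 14.1 and 8.45% against 1.28, 6.59, 1.74 and 2.16%. A match is a run of letters and not a measured site.

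Promoters are printed for 6 genes around which the results below turn. The 3 c-ring genes of ATP synthase, Atp5g1, Atp5g2 and Atp5g3, encode the same mature protein and changed differently at lactation, Cox6a1 rose at lactation in both cell types, and Cox6b1 and Cox6b2 are alternative isoforms with opposite differences between the cell types. Capitals mark motif matches on either strand. The windows are chr11:96075582-96075881 for Atp5g1, chr15:102670998-102671297 for Atp5g2, chr2:73911277-73911576 for Atp5g3, chr5:115348909-115349208 for Cox6a1, chr7:30626065-30626364 for Cox6b1 and chr7:4753045-4753344 for Cox6b2, all on the minus strand and read 5′ to 3′ along the gene. Cox6a1 holds GCGCATGCG followed by C, which together form a palindrome, so that the NRF1 motif matched on both strands, and a GABP match on the minus strand. Atp5g2 holds the same palindrome, Atp5g3 an ESRRA match, Cox6b1 a GABP match, and Atp5g1 and Cox6b2 none of the 4.
Atp5g1: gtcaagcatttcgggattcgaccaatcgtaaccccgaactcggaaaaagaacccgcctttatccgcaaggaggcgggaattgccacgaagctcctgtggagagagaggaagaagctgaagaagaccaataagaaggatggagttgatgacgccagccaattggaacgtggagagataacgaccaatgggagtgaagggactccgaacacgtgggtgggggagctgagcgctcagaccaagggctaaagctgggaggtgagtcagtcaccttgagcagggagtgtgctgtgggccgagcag
Atp5g2: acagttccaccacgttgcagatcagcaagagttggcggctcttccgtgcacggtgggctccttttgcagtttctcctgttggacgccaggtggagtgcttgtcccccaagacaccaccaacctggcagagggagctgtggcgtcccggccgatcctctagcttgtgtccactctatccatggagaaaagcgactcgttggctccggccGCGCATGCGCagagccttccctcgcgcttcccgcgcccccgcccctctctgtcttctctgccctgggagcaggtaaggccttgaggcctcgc
Atp5g3: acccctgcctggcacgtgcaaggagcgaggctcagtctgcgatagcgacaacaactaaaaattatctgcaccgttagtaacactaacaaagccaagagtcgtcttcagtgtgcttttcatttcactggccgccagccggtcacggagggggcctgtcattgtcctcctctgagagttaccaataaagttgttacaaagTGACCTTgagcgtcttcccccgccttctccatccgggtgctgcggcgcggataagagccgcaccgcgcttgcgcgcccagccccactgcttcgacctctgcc
Cox6a1: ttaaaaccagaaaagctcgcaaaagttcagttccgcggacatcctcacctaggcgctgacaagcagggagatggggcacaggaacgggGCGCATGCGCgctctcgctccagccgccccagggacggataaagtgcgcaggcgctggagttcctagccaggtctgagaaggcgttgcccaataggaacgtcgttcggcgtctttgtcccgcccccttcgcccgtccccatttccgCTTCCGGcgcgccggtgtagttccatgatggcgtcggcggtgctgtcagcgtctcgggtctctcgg
Cox6b1: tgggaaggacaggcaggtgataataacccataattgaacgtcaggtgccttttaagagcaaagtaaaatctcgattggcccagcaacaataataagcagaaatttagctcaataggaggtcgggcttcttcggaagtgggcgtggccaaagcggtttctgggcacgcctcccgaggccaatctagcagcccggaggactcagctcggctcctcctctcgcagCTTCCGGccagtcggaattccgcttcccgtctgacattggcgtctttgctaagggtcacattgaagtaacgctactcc
Cox6b2: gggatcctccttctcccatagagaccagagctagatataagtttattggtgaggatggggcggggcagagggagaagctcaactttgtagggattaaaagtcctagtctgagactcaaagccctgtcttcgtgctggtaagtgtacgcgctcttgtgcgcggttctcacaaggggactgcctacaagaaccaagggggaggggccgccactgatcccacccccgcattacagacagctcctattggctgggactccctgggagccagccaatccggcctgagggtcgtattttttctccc

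Which members differed between the 2 cell types was asked first, since these libraries share their mice, lane and batch. Averaged over the 8 time points, basal cells had lower levels of most subunits, with 43 of the 82 lower (52.4%, against 23.1% of all genes) and 4 higher (4.88%, against 29.2% of all genes) in limma at a Benjamini-Hochberg FDR under 0.01. The median log2 difference of the members was -0.31, while that of all genes was 0.02, and 75 of 82 lay below 0. Subunits of every complex were lower, 18 of 36 in complex I, 1 of 4 in II, 4 of 8 in III, 11 of 17 in IV and 9 of 17 in V. Among complex I genes, 2 of 7 conserved core subunits and 16 of 29 accessory subunits were lower. None of the 43 differed by 2-fold, the largest being Cox4i1. Other genes with exons of at most 1 kb had a median of -0.16 and those of 1 to 2 kb a median of -0.18 in the same comparison, and their part in the result was not tested.

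Cox4i1 (ENSMUSG00000031818), the common isoform of cytochrome c oxidase subunit 4, ranged from 47.4 to 411 CPM with a median of 230.9 in the luminal libraries and from 35.4 to 293 with a median of 128.2 in the basal libraries. The ranges overlapped, but the basal library was the lower in 21 of 22 sorts. Its log2 difference was -0.90 (SE 0.10, limma adjusted p = 2.6e-10). Cox6b1, which lies between the monomers of the complex IV dimer, was lower in basal cells in 21 of 22 sorts with a log2 difference of -0.78 (SE 0.10, limma adjusted p = 8.3e-09). Ndufa7, a complex I accessory subunit, was also lower in 21 of 22 sorts, by a log2 difference of -0.80 (SE 0.11). Uqcr11 of complex III differed by -0.65 (SE 0.11), Atp5g1 by -0.59 (SE 0.09) and Sdha, the flavoprotein of complex II, by -0.30 (SE 0.06) on the same scale.

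The 4 members higher in basal cells were Ndufa4l2, Cox6b2, Cox4i2 and Sdhc, and 3 of them are alternative isoforms of complex IV subunits. Ndufa4l2 (ENSMUSG00000040280), a paralog of the complex IV subunit Ndufa4 that is known to be induced at low oxygen, had a median of 0.429 CPM in luminal and 10.1 CPM in basal libraries and was higher in basal cells in 21 of 22 sorts (log2 difference 3.15, SE 0.28). Cox6b2, known best from testis, had medians of 1.14 and 3.64 CPM, with the basal library higher in 20 of 22 sorts (log2 difference 1.25, SE 0.18). Cox4i2 (ENSMUSG00000009876), the isoform of subunit 4 known from lung and hypoxic cells, had medians of 0.928 and 1.56 CPM and a log2 difference of 1.18 (SE 0.23), with the basal library lower in 9 of 22 sorts and the ranges overlapping. Sdhc, a membrane anchor of complex II, differed by 0.40 (SE 0.08) with the basal library higher in 18 of 22 sorts. Setting aside a 2-fold limit, which no lower member passed, 10 other fits were made. Ndufa4l2 and Sdhc kept their call in all 10, Cox6b2 and Cox4i2 in the fits that tested them (both have a mean under 5 CPM and dropped out of the fit with that filter), and 34 of the 43 lower members in the fits that tested them, while without the Id2 libraries 38 members were lower.

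**Figure D2:**
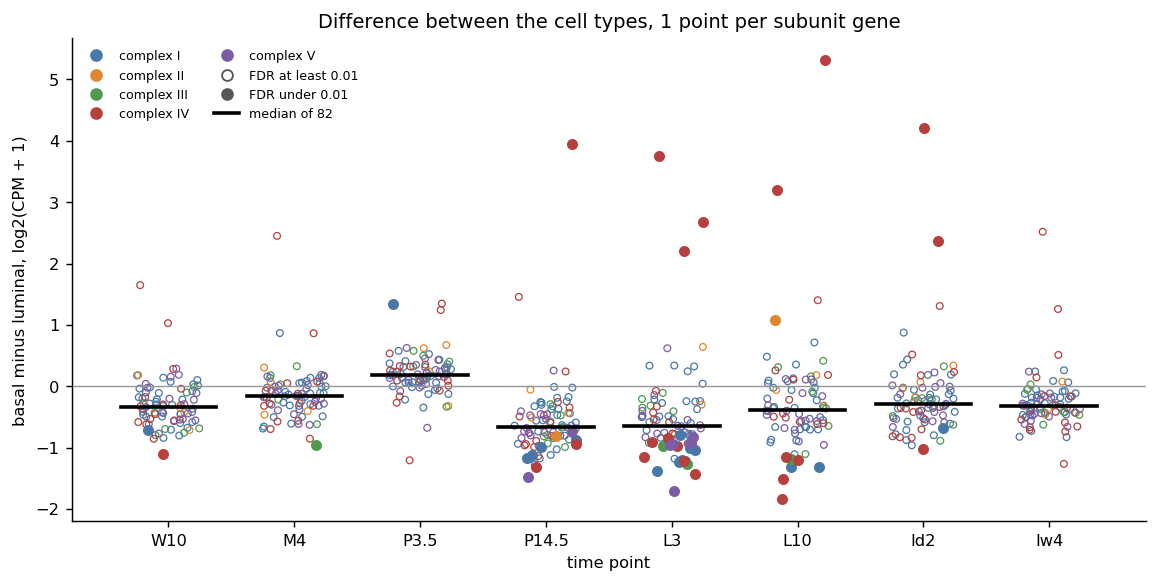
Basal minus luminal difference in log2(CPM + 1) for each of the 82 subunit genes at each time point, coloured by complex, with filled points for FDR under 0.01 and bars for the median of 82. The medians lie at -0.67 at P14.5 and -0.65 at L3, and at 0.19 at P3.5.

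By time point, the most members passed at L3, P14.5 and L10. At L3, 21 members were lower in basal cells (25.6%, against 11.3% of all genes) and 3 higher (3.66%, against 17.4%), with a median log2 difference of -0.65. At P14.5, 9 were lower (11.0%, against 3.89%) and 1 higher (1.22%, against 9.76%), with a median of -0.67, and with the sort as block 19 rather than 10 passed in either direction. At L10, 7 were lower (8.54%, against 11.6%) and 3 higher (3.66%, against 14.5%), with a median of -0.38. The lower share at L10 was thus below that of all genes in this fit. With library totals that leave out milk protein genes, 19 rather than 10 members passed at L10 in either direction. The counts of all genes in that fit, and in the fit with the sort as block, are not given here. Other genes of at most 1 kb had medians of -0.40 at P14.5, -0.44 at L3 and -0.50 at L10, whose part in these differences was not tested. Single libraries moved these counts. Where a P14.5 or L10 basal library was left out, 1 was left in its group and was assumed to vary like the other groups. Without P14.5 basal replicate 3 no member passed at P14.5, and without P14.5 luminal replicate 2, luminal replicate 5 or basal replicate 5 there were 4, 5 and 5. The 24 at L3 became 13, 11 and 12 without L3 luminal replicate 4, luminal replicate 6 or basal replicate 6, and the 10 at L10 became 6 and 4 without L10 basal replicate 5 or 6.

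Atp5g1 (ENSMUSG00000006057), a c-ring gene, gave 53.8, 32.4 and 50.8 CPM in the L3 luminal libraries and 15.3, 14.5 and 9.83 CPM in the L3 basal libraries. These groups did not overlap, and the log2 difference was -1.70 (SE 0.25, limma adjusted p = 1e-06). Cox4i1 was at 309, 245 and 281 CPM in the L10 luminal libraries and at 63.1 and 93.1 CPM in the L10 basal libraries. Every luminal library lay above both basal ones, with a log2 difference of -1.84 (SE 0.30, limma adjusted p = 5.4e-06). At L3 Ndufc2 of complex I differed by -1.39 (SE 0.31) on the log2 scale, and at L10 Cox6b1 (-1.51, SE 0.30) and Ndufb5 (-1.32, SE 0.32) followed Cox4i1. At P14.5 Atp5g1 (-1.47, SE 0.28), Cox4i1 (-1.31, SE 0.30) and Ndufs6 (-1.16, SE 0.32), a zinc-binding complex I subunit, were furthest below luminal cells. The 2 P14.5 basal libraries also averaged 9024 CPM over the fibroblast markers and 1275 CPM over the pericyte markers, and their part in these differences was not tested.

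At the other time points few members passed. In W10, 2 members were lower in basal cells, Cox7c of complex IV (-1.10, SE 0.28) and Ndufs4, an accessory subunit of complex I (-0.72, SE 0.20), against 15.4% of all genes called in either direction. In M4 only Uqcrfs1, the Rieske iron-sulfur protein of complex III, was lower (-0.96, SE 0.24), against 13.4% of all genes. At P3.5 only Ndufa11 was called, higher in basal cells (1.34, SE 0.33), against 12.6%, and the median of the members was above 0 there, at 0.19. Id2 had Cox4i1 (-1.02, SE 0.27) and Ndufs4 (-0.68, SE 0.20) lower and Ndufa4l2 (4.21, SE 0.77) and Cox4i2 (2.37, SE 0.63) higher, against 23.5% of all genes. The Id2 basal libraries were those named above for their low basal and high fibroblast and endothelial markers, and the part of these in the Id2 result was not tested. No member passed limma at Iw4 (15 had an unadjusted p under 0.05 and edgeR called 1), against 12.3% of all genes, although the median was -0.33. With the sort as block the counts were 2 at M4, 7 at Id2 and 1 at Iw4, and the counts of all genes in that fit are not given here. Leaving out 1 library at a time gave 0 to 4 members at W10, 0 or 1 at M4, P3.5 and Iw4, and 1 to 5 at Id2, and both M4 luminal replicates 1 and 2 and P3.5 luminal replicates 2 and 4 and basal replicate 6 each ended the sole call of their time point.

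Variation over the 8 time points was tested in each cell type. By limma's F test, 54 members varied in luminal cells (65.9%, against 34% of all genes) and 67 in basal cells (81.7%, against 44.5%). The test passed for 51 members in both cell types and for 12 in neither, and the matching shares of all genes are not given here. Without the 6 W10 libraries the counts were 34 and 47, beside 4962 and 6994 of the 17078 genes.

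The largest change followed W10. From W10 to P3.5, when pregnancy has begun, 58 of the 82 members rose in basal cells (70.7%, against 5.57% of all genes) and none fell, with a median log2 change of 1.33 against -0.10 for all genes. The rise covered 22 members of complex I, all 4 of complex II, 7 of 8 of complex III, 10 of complex IV and 15 of 17 of complex V. In luminal cells 20 rose (24.4%, against 1.51% of all genes) and none fell, with a median of 0.77 against -0.06. W10 and P3.5 were amplified in different batches, so batch and pregnancy cannot be told apart in this comparison.

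Uqcrq, a small subunit of complex III, gave 7.91, 6.87 and 5.28 CPM in W10 basal and 35.8, 35.4 and 85.6 CPM in P3.5 basal libraries. The groups did not overlap, and the log2 change was 2.68 (SE 0.30, limma adjusted p = 3.2e-07). Atp5k and Atp5e, small subunits of ATP synthase, followed with 2.65 (SE 0.32) and 2.45 (SE 0.34). Ndufb5, a complex I accessory subunit, was at 6.05, 12.0 and 12.9 CPM in W10 luminal and at 39.9, 36.4 and 43.1 CPM in P3.5 luminal libraries. It rose by 1.91 (SE 0.29, limma adjusted p = 9.5e-05), and Ndufa1 (1.89, SE 0.40) and Cox4i1 (1.60, SE 0.27) came next in luminal cells.

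Since the W10 libraries stood apart, the comparison was repeated from M4. With M4 in place of W10, no member passed limma from M4 to P3.5 in either cell type, and the medians were 0.21 in basal and -0.16 in luminal cells. The share of all genes called from M4 to P3.5 is not given here, so this count has no background beside it. On that comparison Ndufb5, Ndufa1 and Cox4i1 in luminal cells were at -0.11, -0.32 and -0.07, and Atp5e in basal cells at -0.22. For Uqcrq the M4 basal libraries held 39.97, 52.8 and 35.4 CPM, level with P3.5 basal rather than with W10 basal.

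Other genes with short exons moved with the members. Of the members, 64.6% had exons of at most 2 kb in all, against 10.5% of other genes at 5 CPM or more. From W10 to P3.5 in basal cells, the other genes of at most 1 kb moved by a median of 0.49, those of 1 to 2 kb by 0.45 and those over 8 kb by -0.40. In luminal cells the same classes moved by 0.21, 0.25 and -0.21. Of 87 cytosolic ribosome genes, 44 rose in basal and 10 in luminal cells, and of 76 mitochondrial ribosome genes 23 and 3. With each library's trend over exon length removed, 49 members rose in basal and 15 in luminal cells, and the counts of all genes in that fit are not given here. The part of batch in the W10 level was not tested. Without P3.5 basal replicate 6, the highest basal library, 37 members rose, and the luminal count fell to between 3 and 11 without W10 luminal replicate 3 (9), W10 luminal replicate 6 (9), P3.5 luminal replicate 2 (3), replicate 4 (11) or replicate 6 (5).

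**Figure D3:**
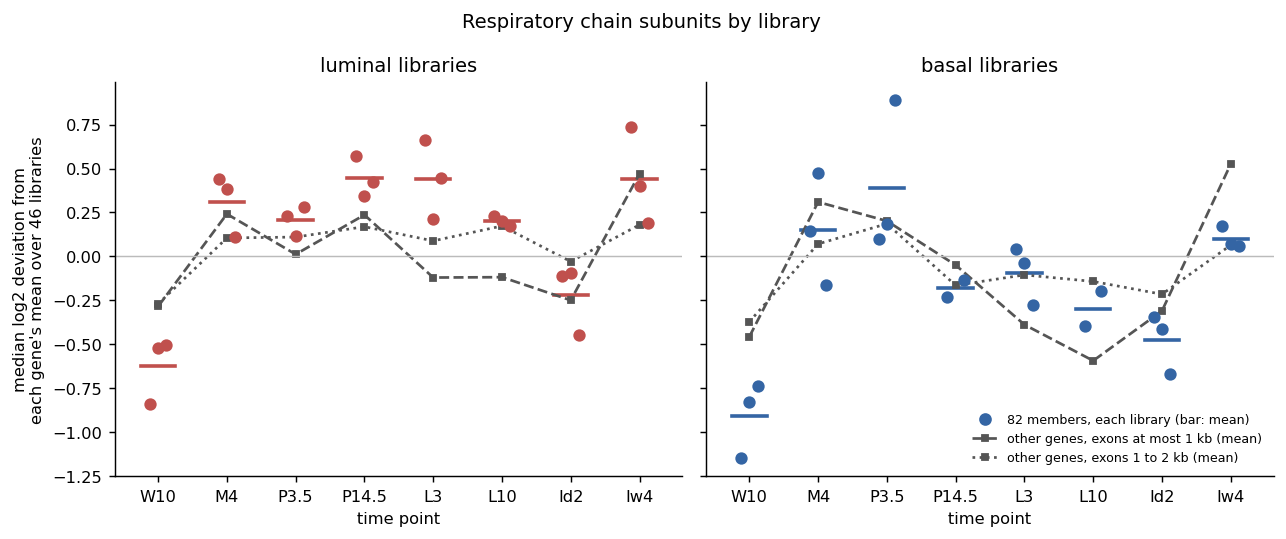
Median deviation of the 82 subunit genes in each library (points, bars for group means) from each gene's mean over 46 libraries, in log2(CPM + 1), by time point and cell type. Dashed and dotted lines give the group means for other genes with exons of at most 1 kb and of 1 to 2 kb, and the W10 libraries are the lowest of all in both cell types for the members.

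Within batches, and from late pregnancy into lactation, few members changed. From P3.5 to P14.5 no member passed limma in luminal cells (9 had an unadjusted p under 0.05 and edgeR called 0), against 1.58% of all genes. In basal cells the members' median fell by 0.60, beside medians of -0.31 for other genes of at most 1 kb and -0.37 for those of 1 to 2 kb. The part of exon length, and of the fibroblast and pericyte markers given above for P14.5 basal, was not tested. There 2 members passed (2.44%, against 1.25% of all genes lower), Ndufs6 (-1.40, SE 0.32) and Atp5g1 (-1.14, SE 0.28). Leaving out P3.5 basal replicate 6 or P14.5 basal replicate 3 removed both, and leaving out P3.5 basal replicate 2 or P14.5 basal replicate 5 left 1. From P14.5 to L3, which crosses batches, no member passed in luminal cells (17 at an unadjusted p under 0.05, edgeR 0) against 7.13% of all genes, and 1 did without L3 luminal replicate 5. With totals without milk genes 8 were lower, beside 1829 lower of all genes. In basal cells Uqcrfs1 fell (-1.19, SE 0.27, 1.22% of members against 1.81% of all genes), a call lost without P14.5 basal replicate 5, L3 basal replicate 5 or L3 basal replicate 6. From L3 to L10 no member passed in luminal (15 at an unadjusted p under 0.05, edgeR 0, 0.386% of all genes) or basal cells (16, edgeR 0, 1.15% of all genes), and 1 did in basal cells without L10 basal replicate 5.

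Lactation (L3 and L10) was compared with the 3 groups that were neither pregnant nor lactating (W10, M4 and Iw4, called non-pregnant here) together, to ask which subunits differ in secreting glands. In luminal cells 27 members were higher (32.9%, against 13.1% of all genes) and 6 lower (7.32%, against 12.1%), with a median log2 difference of 0.34. The higher members comprised 14 of complex I, 1 of II, 3 of III, 4 of IV and 5 of V, among them 4 of 7 core subunits of complex I. L3 and L10 shared a batch that held no non-pregnant library. Batch and lactation therefore cannot be told apart in this comparison, in either cell type. The count of higher luminal members also depended on W10 and on the scaling. Against M4 and Iw4 alone, 8 were higher and 12 lower with a median of 0.03, beside 2019 higher and 1824 lower of the 17078 genes. With library totals that leave out the 6 milk protein genes, which moves the median of all genes to -0.33, 3 were higher and 18 lower, with a median of -0.11 for the members, beside 995 higher and 4712 lower of all genes. In the same libraries the endothelial, macrophage, pericyte and brown adipocyte markers named above rose, and their part in these results was not tested.

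Cox6a1 and Ndufb9 were the members that stayed higher in luminal cells in all 10 other fits at the same FDR, and with a 2-fold limit 3 members were higher and 2 lower. None of these fits removed the batch difference. Cox6a1 (ENSMUSG00000041697), the common isoform of complex IV subunit 6a, ran from 288 to 612 CPM with a median of 383 in the 6 luminal lactation libraries and from 122 to 310 with a median of 232 in the 9 non-pregnant ones. The highest non-pregnant libraries reached into the lactation range, and the log2 difference was 0.98 (SE 0.15, limma adjusted p = 3.9e-06). Ndufb9, a complex I accessory subunit, ran from 95.3 to 160 CPM (median 114) against 15.1 to 107 CPM (median 62.9), with a log2 difference of 1.09 (SE 0.19, limma adjusted p = 2e-05). Atp5g1 (0.99, SE 0.16) and Sdha (0.55, SE 0.11) kept their call in all of these fits but the one with totals without milk genes. Sdha ran from 176 to 235 CPM in lactation and from 109 to 166 CPM in non-pregnant luminal libraries, with no overlap. Ndufa1 differed by 1.24 (SE 0.26), and Ndufa4l2 by 1.79 (SE 0.49) from non-pregnant libraries that held 0 to 0.853 CPM.

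The lower members were Uqcrb, Ndufb3, Cox6c, Uqcrfs1, Ndufc1 and Atp5g3, and all but Ndufc1 were lower in all 10 other fits at the same FDR. Uqcrb (ENSMUSG00000021520), a small subunit of complex III, gave 1.88 to 3.16 CPM (median 2.14) in luminal lactation libraries and 4.13 to 17.4 CPM (median 9.71) in non-pregnant ones. The ranges did not overlap, and the log2 difference was -1.67 (SE 0.19, limma adjusted p = 1.9e-08). Ndufb3, a complex I accessory subunit, gave 8.38 to 21.1 CPM (median 16.4) against 6.85 to 120 CPM (median 55.9), a log2 difference of -1.39 (SE 0.25). Its fall was against M4 and Iw4, since the W10 libraries, at 6.85, 15.8 and 19.3 CPM, lay within the lactation range or below it. Cox6c differed by -0.79 (SE 0.21), Uqcrfs1 by -0.68 (SE 0.16) and Atp5g3 by -0.61 (SE 0.17). For these 3 genes too, W10 luminal replicate 3 lay below every lactation library, at 36.5, 33.6 and 33.7 CPM, and the other W10 libraries lay within the lactation range or, for 1 library of Cox6c, above it.

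In basal cells lactation divided the members. There 9 were higher (11.0%, against 15.2% of all genes) and 10 lower (12.2%, against 14% of all genes), with a median log2 difference of 0.07, so that neither share exceeded that of all genes in this fit. The pericyte, endothelial, adipocyte and skeletal muscle markers named above rose in the same libraries, and their part in the basal results at lactation was not tested. The higher ones were 3 of complex I (Ndufa3, Ndufa12, Ndufs7), 2 of II (Sdha, Sdhc), 1 of III (Uqcr10) and 3 of IV (Cox6a1, Ndufa4l2, Cox4i2). The lower ones were Ndufb3, Ndufb5, Ndufb11, Uqcrb, Uqcrfs1, Cox5b, Cox6c, Atp5f1, Atp5g3 and Atp5h. Against M4 and Iw4 alone there were 6 higher and 21 lower (2513 and 2250 of all genes), and with totals without milk genes 3 and 29 (1358 and 5037 of all genes), with medians of -0.35 and -0.42 beside -0.37 for all genes in the latter. The 10 lower became 6 without W10 basal replicate 6, L3 basal replicate 6, L10 basal replicate 5 or L10 basal replicate 6.

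Sdhc, the complex II anchor, held 165, 237 and 144 CPM in L3 basal and 188 and 300 CPM in L10 basal libraries, against 73.8 to 157 CPM (median 102) in the 9 non-pregnant basal libraries. Lactation libraries were higher apart from the lowest of L3, and the log2 difference was 0.97 (SE 0.16, limma adjusted p = 6.3e-06). Sdha rose by 0.90 (SE 0.12), Uqcr10 by 1.15 (SE 0.22) and Cox6a1 by 1.10 (SE 0.16). With totals without milk genes Cox6a1, Ndufa4l2 and Cox4i2 alone kept their call among the higher members, and against M4 and Iw4 alone Uqcr10 lost its call while Sdhc and Sdha kept theirs. Ndufb5 fell to 14.8, 14.2 and 15.3 CPM in L3 basal and 14.2 and 11.5 CPM in L10 basal libraries. The W10 basal libraries, at 8.28, 7.79 and 11.7 CPM, lay within this range or below it, while M4 and Iw4 lay between 28.0 and 43.6 CPM. The log2 difference was -0.70 (SE 0.20). Ndufb3 (-1.29, SE 0.27), Uqcrb (-1.16, SE 0.21), Cox6c (-1.07, SE 0.22) and Atp5g3 (-0.89, SE 0.19) also fell. For Atp5g3, as for Ndufb5, the W10 basal libraries (29.8, 35.2 and 33.0 CPM) were within the lactation range of 31.1 to 53.4 CPM or below it. The same held for Ndufb3 (6.58, 10.3 and 11.7 CPM in W10 basal against 8.12 to 17.9 CPM) and Cox6c (33.9, 43.8 and 47.3 against 25.0 to 55.4 CPM), whereas Uqcrb was higher in all 3 W10 basal libraries than at lactation. In luminal cells Sdhc was at 0.30 (SE 0.15, limma adjusted p = 0.12). The remaining complex II genes, the iron-sulfur subunit Sdhb (0.36 in luminal and 0.16 in basal cells) and the anchor Sdhd (-0.09 and -0.10), passed in neither cell type.

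Side by side, 5 members were higher at lactation in both cell types (Ndufa3, Sdha, Uqcr10, Cox6a1 and Ndufa4l2) and 5 were lower in both (Ndufb3, Uqcrb, Uqcrfs1, Cox6c and Atp5g3). A further 22 passed as higher in luminal and not in basal cells, and Ndufc1 as lower. In basal and not in luminal cells, Ndufa12, Ndufs7, Sdhc and Cox4i2 passed as higher and Ndufb5, Ndufb11, Cox5b, Atp5f1 and Atp5h as lower. Taken singly, 13.1% of all genes were higher and 12.1% lower in luminal cells, and 15.2% and 14% in basal cells. Shares of all genes for the joint classes are not given here, so these counts have no background beside them. A pass in 1 cell type does not show a difference between the cell types, which the interaction described further on tested.

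**Figure D4:**
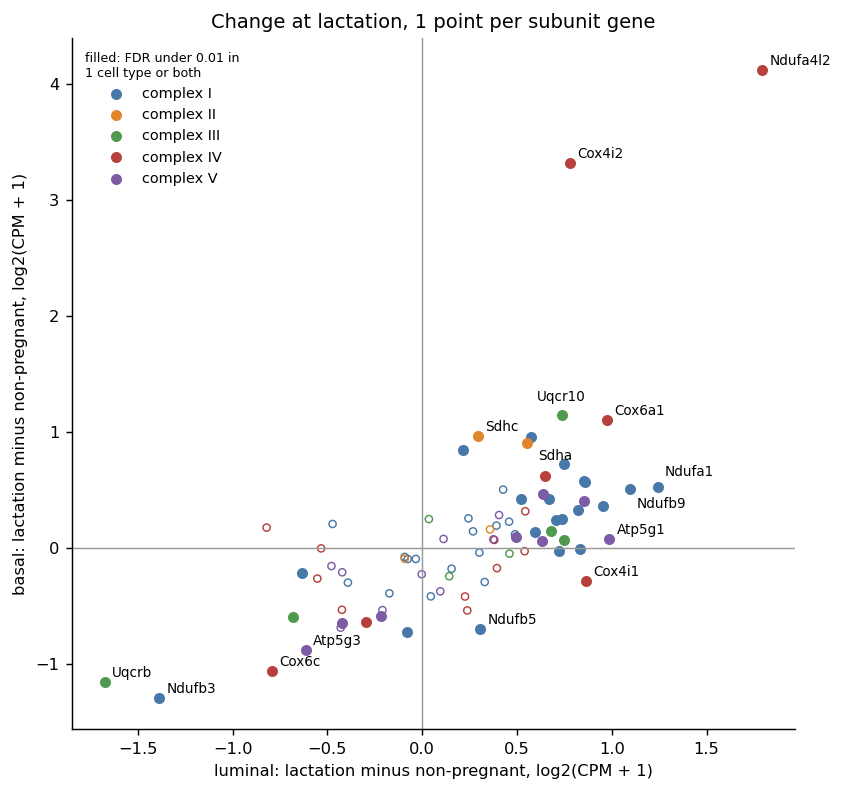
Change from the non-pregnant groups to lactation in luminal (horizontal) and basal (vertical) cells in log2(CPM + 1), 1 point per subunit gene, coloured by complex, filled where FDR was under 0.01 in either cell type. Uqcrb, Ndufb3, Cox6c and Atp5g3 lie at the lower left and Ndufa4l2 and Cox4i2 at the upper right.

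The isoform genes of complex IV showed the largest basal changes. Ndufa4l2 held 2.22, 0.923 and 5.37 CPM in W10 basal libraries, 27.9, 53.3 and 99.9 CPM in L3 basal and 168 and 206 CPM in L10 basal. The basal lactation libraries lay above all but the highest of the non-pregnant ones (28.6 CPM, an Iw4 library), and the log2 change was 4.12 (SE 0.53, limma adjusted p = 8.5e-08). Already at P14.5 basal the values were 49.8 and 6.91 CPM. Per kb of exon, Ndufa4l2 made up 10.8% of the sum of Ndufa4 and Ndufa4l2 in W10 basal, 9.42% in M4 basal, 2.15% in P3.5 basal and 38.1% in P14.5 basal. It made up 57.7% in L3 basal, 87.8% in L10 basal, 49.8% in Id2 basal and 20.01% in Iw4 basal, and at most 7.48% in any luminal group. Single libraries varied, with 59.96 and 16.2% in P14.5 basal and 0.61, 37.6 and 21.8% in Iw4 basal. Ndufa4 itself was at 62.7, 42.3 and 40.6 CPM in L3 basal and 28.7 and 36.9 CPM in L10 basal libraries.

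Cox4i2 held 0.813, 0.718 and 1.02 CPM in W10 basal libraries, 3.69, 27.0 and 36.5 CPM in L3 basal and 24.5 and 14.2 CPM in L10 basal. All basal lactation libraries exceeded the non-pregnant ones, which reached 1.80 CPM, and the log2 change was 3.31 (SE 0.44, limma adjusted p = 1.5e-07). Its share of the 2 subunit 4 isoforms per kb was 25.7% in L3 basal, 33.3% in L10 basal, 24.3% in Id2 basal and at most 6.02% in the other basal groups. In luminal cells Cox4i2 did not pass at lactation (0.78, SE 0.41, limma adjusted p = 0.14), and a single L3 luminal library held 13.7 CPM.

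The pericyte markers were higher in the same basal groups. From L3 to L10 the mean of Cox4i2 went from 22.4 to 19.4 CPM and that of Ndufa4l2 from 60.4 to 187 CPM, beside marker sums of 4214 and 12097 CPM. The 6 markers, of which Rgs5 was the most abundant and none was at 0, summed on average to 109 CPM in W10, 168 in M4, 80.2 in P3.5, 1275 in P14.5, 4214 in L3, 12097 in L10, 5484 in Id2 and 272 CPM in Iw4 basal libraries. Within L3 the sums were 1547, 3715 and 7380 CPM, in the same order as the Ndufa4l2 and the Cox4i2 values of those libraries. Within L10, where they were 8683 and 15512 CPM, Ndufa4l2 was higher and Cox4i2 lower in the second library, and within P14.5, where they were 1322 and 1227 CPM, Ndufa4l2 held 49.8 and 6.91 CPM and Cox4i2 2.69 and 7.24 CPM. All 6 markers rose at lactation with a median of 4.18, and their part in the 2 results was not tested.

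**Figure D5:**
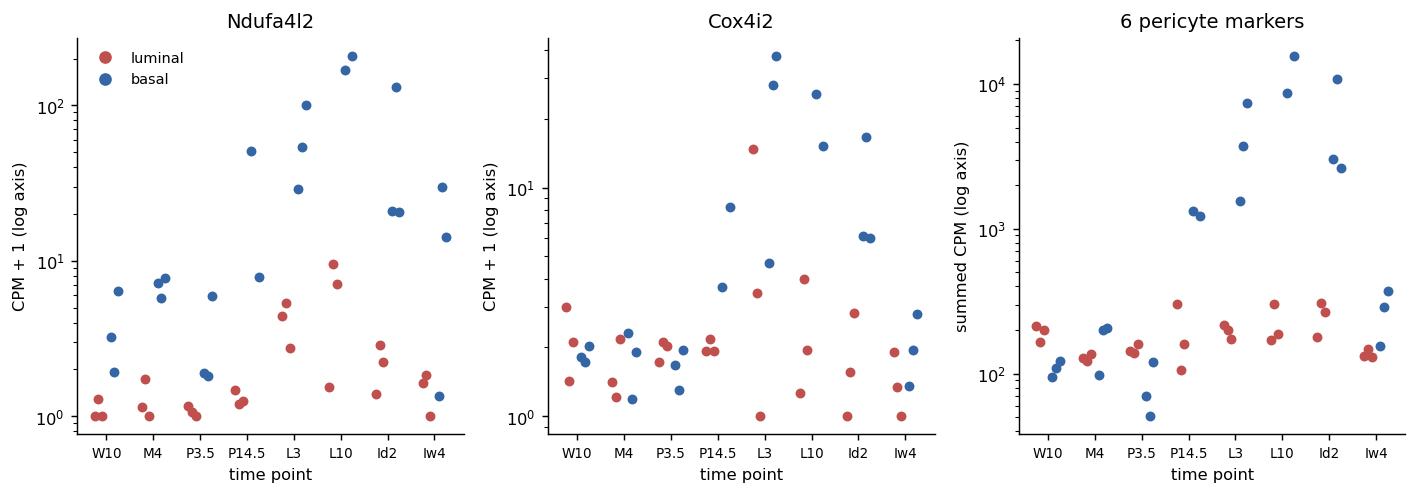
Ndufa4l2 and Cox4i2 (CPM + 1) and the summed CPM of 6 pericyte markers in each library, on log axes, by time point, luminal in red and basal in blue. In all 3 panels the highest group means are those of basal L3, L10 and Id2, while single libraries of other groups reach into their range.

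Other isoform families kept their main member. Cox6b2 made up at most 10.2% of Cox6b1 and Cox6b2 per kb, in W10 basal, and 0.05% in L3 luminal, where its libraries held 0.18, 0.118 and 0 CPM against 2.57, 11.8 and 6.68 CPM in L3 basal. Cox7a1, the muscle isoform of subunit 7a, made up 13.8% of the Cox7a family in W10 luminal, and between 1.03 and 8.65% in the other groups. At lactation Cox8a rose in luminal cells (0.65, SE 0.19), and Cox6b1 (0.39), Cox6b2 (-0.82), Cox7a1 (-0.53), Cox7a2 (0.38), Cox7a2l (0.24), Cox7b (0.54) and Ndufa4 (0.23) did not pass there. In basal cells none of these passed, with values of 0.61, -0.18, 0.17, -0.01, 0.07, -0.54, -0.03 and -0.42 in the same order from Cox8a. Of the symbols the rule also covers, Cox6a2, Cox7b2, Cox8b, Cox8c, Ndufb4c and Ndufs6b were not analysed here.

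The c-ring genes of ATP synthase changed unequally in luminal cells. Atp5g1 and Atp5g3, whose products have the same mature sequence, moved in opposite directions at lactation, with log2 differences of 0.99 and -0.61, while Atp5g2 was at -0.21 (SE 0.21) and did not pass. The fall of Atp5g3 was against M4 and Iw4, and the rise of Atp5g1 was not called with totals without milk genes. Shares per kb rest on joined exon lengths of 4.912 kb for Atp5g1, 1.675 kb for Atp5g2 and 2.181 kb for Atp5g3. The size of a share depends on these lengths, and their part was not tested. Atp5g1 made up 14.2% ± 3.45 (SD, n = 6) of the 3 genes per kb in luminal lactation libraries, with a range of 11.0 to 20.8%. In non-pregnant luminal libraries it made up 5.56% ± 2.01 (SD, n = 9), with a range of 2.35 to 9.00%. The ranges did not overlap, which describes the same libraries in which both genes were called. In basal cells the share was 10.8% ± 5.54 (SD, n = 5) against 6.6% ± 3.18 (SD, n = 9), and the ranges overlapped. P14.5 luminal libraries stood at 8.23% and Iw4 luminal at 4.99% on average.

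The interaction tested whether the change at lactation differed between the cell types. It was positive for 1 member (1.22%, against 6.64% of all genes) and negative for 4 (4.88%, against 6.22%), close to or below the background, with a median of -0.24. Cox4i2 rose more in basal cells (2.53, SE 0.60, limma adjusted p = 0.002), and 2 members were positive with the sort as block or without L10 basal replicate 5 or Iw4 basal replicate 5. No member was positive by edgeR, with a pseudocount of 0.1, without W10, or with a filter at a mean of 5 CPM, which left Cox4i2 untested. Cox4i1 (-1.15, SE 0.25), Ndufb5 (-1.005, SE 0.27), Atp5g1 (-0.91, SE 0.24) and Ndufa10 (-0.75, SE 0.18) changed more in favour of luminal cells, and the 4 became 2 without W10 and without any of L3 luminal replicate 4, L3 luminal replicate 6 and L10 basal replicate 6. Cox4i1 was negative in all 10 other fits at the same FDR. Ndufa10, a complex I accessory subunit, ran from 88.4 to 135 CPM in luminal lactation and from 50.2 to 89.0 CPM in non-pregnant luminal libraries, while basal libraries ran from 44.2 to 68.6 and from 44.7 to 79.4 CPM.

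Involution was compared with L10, from another batch, and, within its own batch, with W10. Batch and involution cannot be told apart in the comparison with L10. From L10 to Id2, 2 members rose in luminal cells (2.44%, against 2.45% of all genes) and 6 fell (7.32%, against 2.68%), with a median of -0.40. Uqcrb rose by 1.64 (SE 0.30) and Ndufc1 by 1.39 (SE 0.25), while Cox4i1 (-1.47, SE 0.27), Uqcr11 (-1.35, SE 0.31), Ndufv1 (-1.25, SE 0.28), Ndufb5, Cox7a2l and Atp5a1 fell. Cox4i1 gave 109, 112 and 79.3 CPM in Id2 luminal against 309, 245 and 281 CPM in L10 luminal libraries, with no overlap. In basal cells 2 rose (2.44%, against 6.08%) and 5 fell (6.10%, against 8.09%), in the Id2 libraries whose basal markers summed to 1369, 17966 and 1110 CPM and whose fibroblast markers averaged 28561 CPM, and the part of these cells in the result was not tested. Uqcrb rose there too (1.55, SE 0.34), with Cox5b (1.17, SE 0.31), and Uqcr10 (-1.74, SE 0.36), Sdhc (-1.09, SE 0.26), Atp5g1 (-1.03, SE 0.28), Cox6a1 and Sdha fell. The luminal 8 became 5, 5 and 4 without L10 luminal replicate 4, L10 luminal replicate 5 or Id2 luminal replicate 6, and the basal 7 became 4, 1 and 3 without L10 basal replicate 5, L10 basal replicate 6 or Id2 basal replicate 6.

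Against W10, 4 members were higher in Id2 luminal cells (4.88%, against 6.72% of all genes) and 1 lower (1.22%, against 4.99%). Ndufa1 (1.60, SE 0.40), Ndufa3 (1.15, SE 0.31), Ndufc1 (0.98, SE 0.25) and Cox6a1 (0.84, SE 0.24) were the higher ones, and with M4 in place of W10 Ndufa1 was at -0.61. Ndufb2, a complex I accessory subunit, was the lower one and kept its call in all 9 other fits at the same FDR, at 7.51, 4.30 and 2.03 CPM in Id2 luminal against 11.1, 15.0 and 9.33 CPM in W10 luminal libraries (-1.29, SE 0.32). The groups did not overlap. In the same luminal comparison all 7 macrophage markers and all 6 milk protein genes rose, by medians of 2.72 and 5.32, and their part in the result was not tested. These 5 members became 1, 2 and 1 without W10 luminal replicate 3, Id2 luminal replicate 2 or Id2 luminal replicate 4. In basal cells 13 were higher (15.9%, against 9.64%), led by Ndufa4l2 (3.49, SE 0.77), Cox4i2 (2.20, SE 0.63) and Uqcrq (1.54, SE 0.30), in the libraries whose basal markers had fallen in 9 of 10 cases by a median of 5.72 and whose 6 pericyte, 7 of 8 endothelial and 6 of 8 fibroblast markers had risen. Their part in the result was not tested. With totals without milk genes 2 members were higher, and with the trend over exon length removed 3. Without W10 basal replicate 3, 5 or 6 or Id2 basal replicate 2 or 4 the count was 4, 5, 7, 5 and 4, and with M4 in place of W10 Uqcrq was at -0.97. Against M4, 1 member was higher (Cox4i2, the only 1 of the 13) and 19 were lower in basal cells, and none was higher and 16 were lower in luminal cells, with medians of -0.70 and -0.55. Of all 17078 genes, 1423 were lower against M4 in basal and 1061 in luminal cells. M4 and Id2 were amplified in different batches, so batch and involution cannot be told apart in the comparison with M4.

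Parous glands at 4 weeks of involution were compared with M4, which shares their batches. No member passed limma in luminal cells (0 at an unadjusted p under 0.05, edgeR 0), against 0% of all genes, or in basal cells (1 at an unadjusted p under 0.05, edgeR 0), against 0.00586% of all genes. The median log2 differences were 0.12 and -0.01, with extremes of -0.48 and 0.44 in luminal and -0.50 and 0.75 in basal cells.

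Genes that work beside the subunits were taken as further lists. The 13 subunits encoded by mitochondrial DNA are counted apart from the nuclear ones. From W10 to P3.5 none passed limma in basal (median -0.30) or luminal cells (median 0.14), with 0 at an unadjusted p under 0.05 and 0 by edgeR in each. At lactation 2 rose and 3 fell in luminal cells (13.1% and 12.1% of all genes), and 6 rose and 2 fell in basal cells (15.2% and 14% of all genes). The medians were 0.42 and 1.05. mt-Nd4, a complex I core subunit, rose by 1.39 and 1.61, and mt-Co2, which carries the copper site that receives electrons from cytochrome c, was lower by 1.99 and 1.79 on the log2 scale. Summed CPM of the 13 was 9.45, 6.22 and 6.98 times that of the 82 nuclear genes in W10, M4 and Iw4 basal libraries and 3.88 times in P3.5 basal libraries, against 18.4, 14.7, 13.6 and 14.9 times in P14.5, L3, L10 and Id2 basal. In luminal groups the ratio lay between 4.31 and 8.78 except at Id2, where it averaged 25.9 with libraries between 11.5 and 50.1. There 12 of the 13 rose against W10 (median 1.97, edgeR 9), against 6.72% of all genes.

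Milk protein genes marked lactation, with 6 of 6 higher in luminal cells (median 4.55) and 5 of 6 in basal cells (median 3.22). The counts of the lists that follow stand beside 13.1% of all genes higher and 12.1% lower at lactation in luminal cells, and 15.2% and 14% in basal cells. Of 17 citrate cycle genes 7 rose and 1 fell, with Cs, citrate synthase, up by 1.26 and Dlat of pyruvate dehydrogenase up by 1.15, and in basal cells 4 rose, among them Mdh2, malate dehydrogenase (0.70), and 1 fell. Of 16 glycolysis genes 8 rose in luminal cells, with Hk2 (1.93) and Pfkl (1.28) in front, and 4 in basal cells, with Aldoa (1.26) and Pfkp (0.82). Of 15 genes for electron carriers, which make ubiquinone or cytochrome c, 6 rose in luminal cells, Coq9 by 1.67 and Coq8a by 1.49, and 3 rose and 1 fell in basal cells. Between the cell types, 7 of these 15 were lower in basal cells and none higher. Of 10 genes listed under adenine nucleotide exchange, 1 rose in luminal cells (Ucp3, which encodes an uncoupling protein, 3.58), and in basal cells Ckmt1 rose (1.52) and Slc25a5 fell (-0.66).

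Genes that make the machinery followed other patterns. Of 76 mitochondrial ribosome genes, 30 were lower and 1 higher in basal than in luminal cells, while at lactation 8 rose and 4 fell in luminal and 4 rose and 8 fell in basal cells. Of 87 cytosolic ribosome genes, 27 fell at lactation in luminal cells and 76 in basal cells, with medians of -0.38 and -1.15 and none higher, against 12.1% and 14% of all genes lower. Of 16 regulators of mitochondrial biogenesis, Ppargc1b, a coactivator, rose in both cell types (1.497 and 1.52), Esrra, the receptor it works with, rose in luminal cells (1.23), and Ppargc1a in basal cells (1.41). Gabpa fell in both (-0.76 and -0.55), Gabpb1 in luminal cells (-1.09), and Yy1 (-0.77) and Tfb1m (-1.01) in basal cells. Nrf1 (0.14 and 0.47), Tfam (-0.63 and -0.62), Pprc1 (0.13 and -0.14), Gabpb2 (-0.05 and 0.43), Tfb2m (0.37 and 0.19), Polrmt (0.23 and -0.46), Polg (-0.12 and -0.01), Polg2 (0.18 and 0.53) and Twnk (-0.40 and -0.46) did not pass in luminal or basal cells. Of 44 assembly factors for the 5 complexes, 3 rose and 1 fell at lactation in luminal cells and 3 rose and 2 fell in basal cells, while 4 were higher and 13 lower in basal than in luminal cells, where 29.2% of all genes were higher and 23.1% lower.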

How the data were processed

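RNA of FACS-sorted luminal and basal cells was amplified and sequenced by the authors, who trimmed adapters, aligned reads with GSNAP to mouse NCBI Build 37.1, counted them per Ensembl gene with HTSeq and scaled them with edgeR. The deposited values are a signal per gene, a count scaled by the effective library size, and are called CPM here. Their sum differs between libraries, because of the scaling factor and of genes the authors removed before deposit (those with very many reads and little variation, and those under 1 CPM). Of 47 samples described, 46 had values, and 1 P14.5 basal library was not analysed here. Whole reads were recovered from the steps in the values, with 100.0% of values whole within a tolerance of 0.1 reads in the library with the lowest share. Groups and replicate numbers were taken from the labels, with pools of 4 mice per sort, so p-values measure the spread between sorts. L3 and L10 replicates 4 share a sort date, as do replicates 5, and were counted as separate sorts.

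Values were tested as log2(CPM + 1) with limma 3.58.1 in R 4.3.3, 1 mean per group over all 46 libraries, and p-values were adjusted over 17078 genes by the Benjamini-Hochberg method, with FDR under 0.01 as the threshold. The pseudocount understates the change of low genes. edgeR 4.0.16 was run on the recovered reads as an alternative, and called 15 members from W10 to P3.5 in luminal and 58 in basal cells, 25 higher and 7 lower at lactation in luminal, 8 and 10 in basal cells, and 4 higher and 48 lower between the cell types. Alternatives were another pseudocount, a filter on the mean, median ratios, library totals without 6 milk protein genes, the sort as block, the threshold with a 2-fold limit, trends over exon length and GC removed, M4 in place of W10, time points left out and libraries left out. The sort pairs a luminal with a basal library of the same mice. In 22 such pairs, 21 correlations of the deviations from the group means were above 0, with a median r of 0.31, and limma estimated a correlation of 0.179 within sorts. Scripts were tested on simulated data.

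Members and lists were chosen with earlier results of these data known. Named were the members with the 3 largest rises and falls among those called in a comparison, the largest of each complex, the highest per kb of each complex, the isoform families, the complex II genes, all called in the interaction, and from each list the 2 largest called changes at lactation and all biogenesis regulators. One gene that this rule names is not reported here. Intervals and limits at a count of 0 cover counting error alone.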

Additional observations from a re-analysis of the deposited data

Results flagged for a closer look

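For 5 subunit genes the change from the non-pregnant groups to lactation differed between basal and luminal cells when the difference itself was tested (limma interaction, Benjamini-Hochberg adjusted over all genes). The basal change was above the luminal one for Cox4i2, by 2.53 on the log2 scale. It was below the luminal one for Cox4i1 (-1.15), Ndufb5 (-1.005), Atp5g1 (-0.91) and Ndufa10 (-0.75). These are 1.22% of the 82 members positive, against 6.64% of all genes, and 4.88% negative, against 6.22%. The Cox4i2 call was lost by edgeR, with a pseudocount of 0.1 and without W10, and the filter at a mean of 5 CPM left the gene untested. Of the 5 calls the Cox4i1 one alone held in all 10 other fits at the same FDR. No group held more than 3 libraries, so single libraries were not tested as outliers.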

How the results depend on the processing

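Settings are given as the number of members passing, with the reported number in parentheses where it was not given for another setting before. The alternatives of exon length, of length and GC, and of M4 in place of W10 were chosen after seeing the data, and the cause of a moved count was not tested. Totals without milk genes gave, in luminal cells, 36 (20) from W10 to P3.5, 8 (0) from P14.5 to L3, 13 (8) from L10 to Id2, 1 (5) from W10 to Id2, and 3 higher (27) and 18 lower (6) at lactation. In basal cells they gave 5 (2) from P3.5 to P14.5, 2 (1) from P14.5 to L3, 2 (13) from W10 to Id2, and 3 higher (9) and 29 lower (10) at lactation, and between the cell types 4 (2) at W10 and 19 (10) at L10. M4 in place of W10 gave 0 in luminal and 0 (58) in basal cells to P3.5, 16 in luminal and 20 in basal cells to Id2, 8 higher and 12 lower luminal and 21 lower basal members at lactation, 0 positive (1) and 2 negative (4) in the interaction, and 34 (54) varying in luminal cells. It turned the change to P3.5 of Ndufb5 (-0.11), Ndufa1 (-0.32), Cox4i1 (-0.073) and, in basal cells, Atp5e (-0.22), and the change to Id2 of Ndufa1 (-0.61) in luminal and Uqcrq (-0.97) in basal cells.

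With the length trend removed there were 2 luminal and 3 basal members from W10 to Id2, 2 basal from P14.5 to L3, 17 (10) and 7 (4) between cell types at P14.5 and Id2, and 4 positive in the interaction. With length and GC removed there were 2 luminal and 3 basal from W10 to Id2, 14 higher luminal at lactation, 6 basal from P3.5 to P14.5, 2 basal from P14.5 to L3, 10 between cell types at Id2, and 3 positive and 2 negative in the interaction. A mean of at least 5 CPM left 8 luminal from W10 to Id2, 2 (4) higher in basal cells over the time points and 0 positive in the interaction. edgeR gave 1 luminal from W10 to Id2, 1 (0) between cell types at Iw4 and 0 positive in the interaction. The pseudocount of 0.1 gave 2 (1) at M4 and 0 positive. Median ratios gave 1 basal from P3.5 to P14.5 and 6 at P14.5. With the sort as replicate block, pairing luminal with basal libraries, there were 2 at M4, 19 at P14.5, 7 at Id2 and 1 at Iw4 between cell types and 2 positive in the interaction, and no other count moved by more than 1.5 times. With a 2-fold limit there were 3 luminal from W10 to Id2, 3 higher and 2 lower luminal and 4 higher and 3 lower basal at lactation, 1 at W10, 0 at M4, 5 at P14.5 and 14 (24) at L3 between cell types, 0 lower over the time points (43) and 2 negative in the interaction.

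Leaving out 1 library at a time gave, in luminal cells, 3 to 14 from W10 to P3.5, 0 to 1 from P14.5 to L3, 4 to 7 from L10 to Id2, 1 to 6 from W10 to Id2, and 18 to 29 higher and 4 to 9 lower at lactation. In basal cells it gave 37 to 56 from W10 to P3.5, 0 to 2 from P3.5 to P14.5, 0 to 1 from P14.5 to L3, 0 to 1 from L3 to L10, 1 to 7 from L10 to Id2, 4 to 11 from W10 to Id2, and 7 to 10 higher and 6 to 10 lower at lactation. Between the cell types it gave 0 to 4 at W10, 0 to 1 at M4, P3.5 and Iw4, 0 to 10 at P14.5, 11 to 27 at L3, 4 to 10 at L10, 1 to 5 at Id2, 4 higher and 38 to 49 lower over the time points, and 1 to 2 positive and 2 to 4 negative in the interaction. Of 733 values of named members under the other settings, 676 kept direction and side of the threshold, 51 lost the threshold and 6 reversed. Since 3 reads were worth up to 1.052 CPM, levels below that are not well measured in every library.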
